A study of Homo sapiens with 16 samples.

Results

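H3K27 acetylation was examined at the genes of 9 transcription factors of myeloid and leukemia cells (RUNX1, RUNX2, GFI1, KLF4, EGR1, EGR2, MYB, MYC and MEF2C) in THP-1 cells. The members were the 103 regions, of 151654 in all, that were annotated to 1 of these genes and lay within 50000 bp of its transcription start site (TSS). RUNX1 held 21 of them, MYB 14, MEF2C 14, RUNX2 12, GFI1 10, KLF4 9, EGR1 9, MYC 8 and EGR2 6. A region is a window of 1000 bp, and is named here by its gene and its distance to the TSS in bp, negative upstream. H3K27ac was measured by ChIP-seq in 4 groups of 2 libraries each, labelled as biological replicates. THP-1 is a human acute myeloid leukemia line of monocytic type. Cas9 alone was present in WT cells, whereas USP18 had been edited by CRISPR in USP18-/- cells. Cells of both genotypes were left untreated or received IFNα at 1000 U/ml for 6 h. The study's methods describe sorting of single cells after editing, and which clone each library came from is not given in the sources used here, so loss of USP18 and features of a clone cannot be told apart.

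H3K27ac marks active promoters and enhancers, and its level describes regulatory elements, not the amount of transcript. USP18 removes the ubiquitin-like protein ISG15 from other proteins and restrains signaling from the type I IFN receptor, whose target genes often carry interferon-stimulated response elements (ISRE). EGR1 and EGR2 are immediate early zinc finger proteins that take part in monocyte and macrophage differentiation, and KLF4 is a zinc finger factor of the same lineage. RUNX1 and RUNX2 bind DNA together with CBFB, and RUNX1 is often mutated or rearranged in myeloid leukemia. GFI1 is a repressor needed for granulocytes, MYB and MYC sustain proliferation of progenitor and leukemia cells, and MEF2C is active in myeloid progenitors and in leukemias with MLL fusions.

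The libraries held 9046083 to 12935476 counts in the regions, which was 36.1% to 42.5% of their tags. Values are given as CPM, the usual scaling of a count to its library's total in the regions, here with edgeR's TMM factors. Of the 103 regions, 101 had enough counts to be tested, and 44 lay in stretches of overlapping windows, so that the 103 regions formed 79 separate stretches. At the TSS of USP18, H3K27ac was 7.54 to 8.40 CPM in the untreated libraries of both genotypes, 14.8 and 17.9 CPM in WT cells with IFN and 41.1 and 48.6 CPM in USP18-/- cells with IFN, and this mark at the TSS is no check of the edit itself. Of 9 monocytic and myeloid markers, 7 had a region within 1000 bp of their TSS, with a summed level of 134 to 146 CPM in WT libraries and 192 to 201 CPM in USP18-/- libraries, and MPO and FCGR1A had none. Most of this sum came from SPI1 and CEBPA, with means of 91.0 and 38.5 CPM over all libraries. The other markers in it had 2.20 to 10.9 CPM, so the sum says little about each of them. Of 4 lymphoid markers CD79A alone had such a region, with 4.45 to 7.42 CPM, and of 4 erythroid markers none had one. The part of these marker levels in the genotype results was not tested, and in bulk cells a smaller share of marked cells and less signal per cell cannot be told apart.

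The counts of all regions of a gene were first summed, to give each gene 1 level per library. In untreated cells the sums of 6 of 9 genes were higher in USP18-/- than in WT cells (EGR1, EGR2, MEF2C, GFI1, RUNX1 and MYB) and those of 2 were lower (KLF4 and RUNX2), at an adjusted p under 0.05 over the 22207 genes tested. Of all genes, 32.8% were higher and 16.8% lower in this comparison. With IFN in both genotypes, 5 were higher in USP18-/- cells (EGR1, EGR2, MEF2C, GFI1 and RUNX1) and 1 was lower (RUNX2), against 37.4% and 18.6% of all genes. IFN changed none of the 9 sums in WT cells by edgeR or by DESeq2, with 4 of 9 at an unadjusted p under 0.05 in edgeR, where 1.29% of all genes were called higher and 0.392% lower. In USP18-/- cells IFN raised EGR1, EGR2 and MEF2C and lowered MYB and MYC, against 20.8% and 15.1% of all genes. The difference of the IFN effects between genotypes was called above 0 for EGR1 and below 0 for MYB, against 12.5% and 7.87% of all genes. The median log2 fold change of the 9 genes was 0.27 untreated and 0.18 with IFN for USP18-/- against WT, beside 0.16 and 0.20 over all genes, and 0.07 beside 0.04 for IFN in USP18-/- cells.

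**Figure D1:**
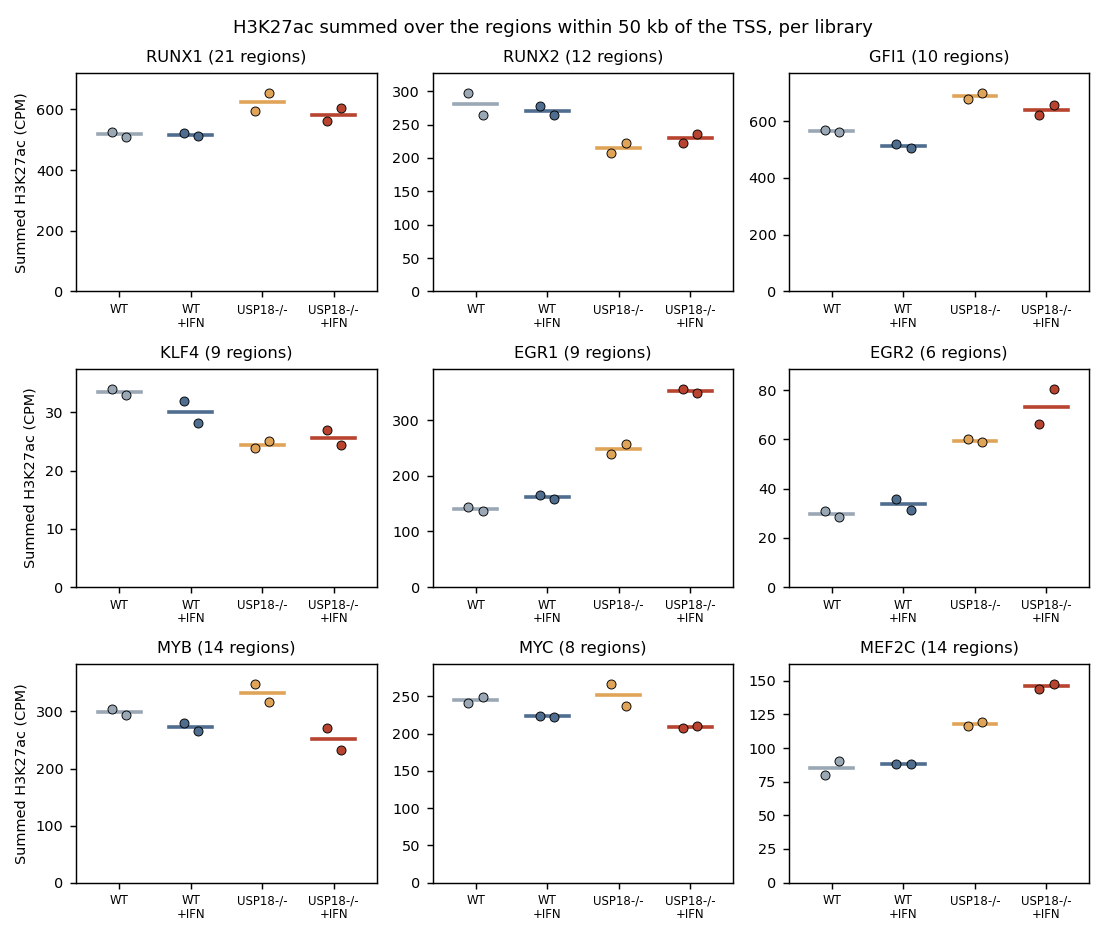
Summed H3K27ac (CPM, y axis, from 0) of the 9 genes in the 4 groups (x axis), with a point for each of the 2 libraries and a bar at the group mean. EGR1, EGR2 and MEF2C were highest in USP18-/- cells with IFN, MYB and MYC were lowest there, and RUNX2 and KLF4 were higher in WT than in USP18-/- cells.

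Region by region, a change was called at a fold above 2 and an adjusted p under 0.05 by edgeR's quasi-likelihood test, with p adjusted by Benjamini-Hochberg over the 123276 regions tested. IFN in WT cells called none of the 101 tested member regions, by edgeR or by DESeq2. An unadjusted p under 0.05 in edgeR was found for 12 of them and for 11017 of the 123276 regions tested. Of all regions, 0.344% were called higher and 0.0389% lower. In USP18-/- cells IFN called 2 member regions higher (GFI1 -15532 and RUNX1 -45494) and 4 lower (RUNX1 -22842, RUNX1 +22568, EGR2 -11734 and MYB +13919), against 7.11% and 4.42% of all regions. In untreated cells 9 member regions were higher and 9 lower in USP18-/- than in WT cells, against 5.69% and 10.8% of all regions. With IFN these counts were 15 and 12, against 11.3% and 13.5%. The split moved with the scaling, to 2 higher and 19 lower untreated and 7 and 21 with IFN when TMM factors came from proximal regions, and to 17 and 4 and 17 and 7 when they came from distal regions, which moved the median log2 fold change of all regions by -0.31 untreated and -0.35 with IFN, and by 0.16 and 0.13. The difference of the IFN effects was called for 2 regions above 0 and 2 below 0, against 4.6% and 2.56%. The 4 comparisons share groups pair by pair. In them 34 member regions were called at least once, 67 were called in none, and 2 (EGR2 -32474 and KLF4 -15275) were not tested. The share of all regions called at least once was not counted, so 34 cannot be read as many or few.

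Genotype calls were counted separately near promoters and far from them. Of 27 member regions within 3000 bp of a TSS, 5 were called higher in untreated USP18-/- cells and 6 with IFN, all at EGR1 and EGR2, against 7.38% and 14.5% of all proximal regions. None was called lower, against 4.51% and 5.9%. EGR1 -88, EGR1 -422 and EGR1 -790 overlap, as do EGR2 -73 and EGR2 -382. With scaling on proximal regions all 5 untreated calls were lost. Their log2 fold changes were then 0.81 (EGR1 -88), 0.74 (EGR1 -422), 0.86 (EGR2 +1062), 0.71 (EGR2 -73) and 0.74 (EGR2 -382). The sum of counts lost all but EGR2 +1062 untreated (0.88 to 0.98). With IFN, scaling on proximal regions lost EGR1 -422, EGR1 -790, EGR2 -73 and EGR2 -382. Distal members went both ways. Of 74 tested, 4 were called higher and 9 lower untreated, against 5.18% and 12.7% of all distal regions, and 9 and 12 with IFN, against 10.3% and 15.8%. The median log2 fold change of the proximal members was 0.31 untreated and 0.30 with IFN, beside 0.31 and 0.34 over all proximal regions. For the distal members it was 0.02 and -0.03, beside -0.14 and -0.13 over all distal regions. Called in both genotype comparisons were 12 member regions, 7 higher in each, 4 lower in each, and 1 (GFI1 -15532) lower in untreated and higher in IFN treated cells, against 3.29%, 7.1% and 0.187% of all regions. None was called higher untreated and lower with IFN, against 0.00406%.

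**Figure D2:**
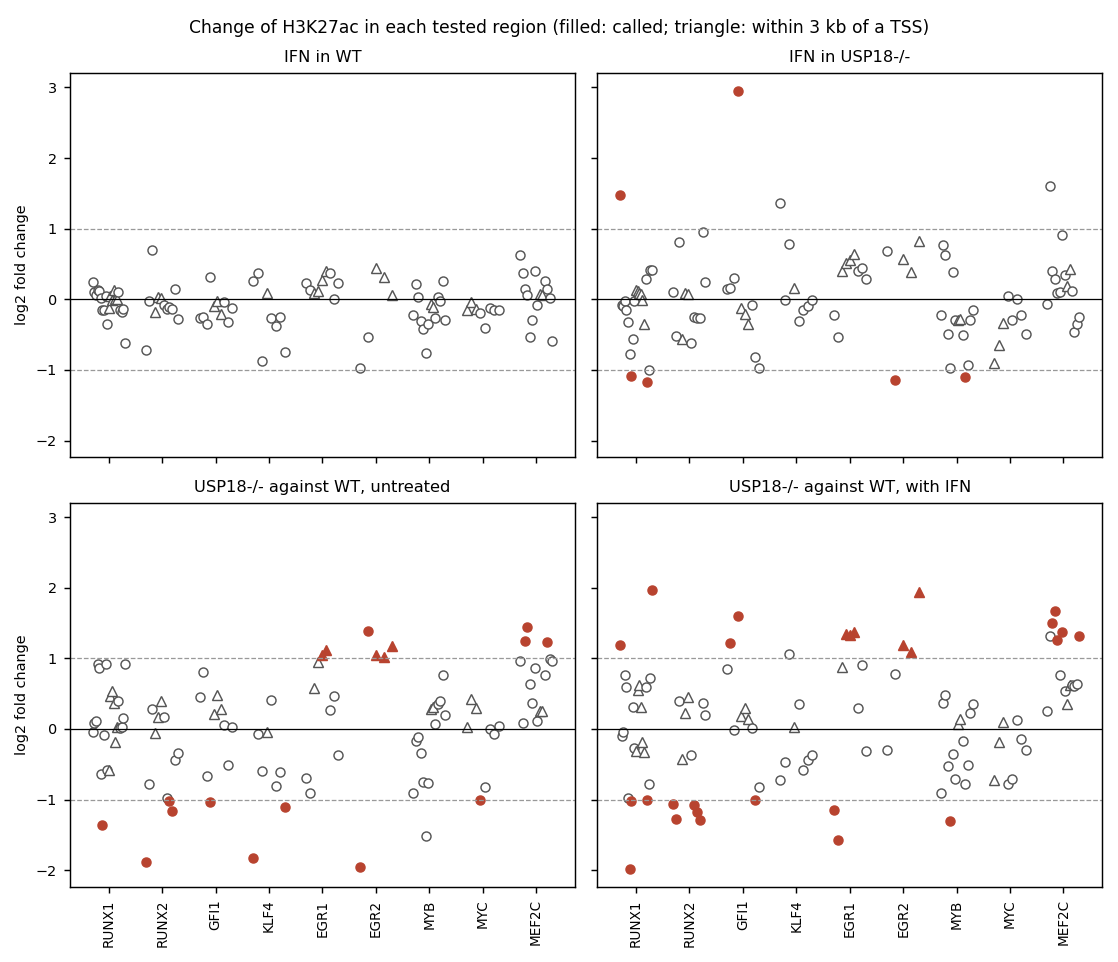
Log2 fold change (y axis) of each tested region in 4 comparisons, by gene (x axis) and in order of distance to the TSS within a gene, with filled symbols for called regions, triangles for regions within 3000 bp of a TSS and dashed lines at a fold of 2. No symbol is filled for IFN in WT cells, GFI1 -15532 stands at 2.95 for IFN in USP18-/- cells, and the filled triangles between genotypes belong to EGR1 and EGR2.

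The EGR1 promoter rose from group to group. At EGR1 -422 (chr5:138464570-138465570, hg38, promoter), H3K27ac was 34.6 and 31.1 CPM in WT cells, 42.8 and 36.5 in WT cells with IFN, 66.3 and 69.8 in USP18-/- cells, and 102 and 97.7 in USP18-/- cells with IFN. No USP18-/- library overlapped a WT library, and both treated USP18-/- libraries were above all others. The log2 fold change of USP18-/- over WT was 1.05 (SE 0.10, edgeR adjusted p = 1.0e-14) untreated and 1.33 (SE 0.10, edgeR adjusted p = 1.0e-20) with IFN. The windows that overlap it, EGR1 -88 and EGR1 -790, gave 1.12 and 0.95 untreated and 1.37 and 1.34 with IFN. Without WT replicate 2, EGR1 -422 came to 0.97 in untreated cells, under the fold of 2, and with scaling on proximal regions it came to 0.74 untreated and 0.98 with IFN. IFN raised the 4 proximal EGR1 regions in USP18-/- cells at an adjusted p under 0.05 but by less than 2-fold, by 0.40 to 0.65 on the log2 scale. In WT cells EGR1 -88 had the smallest adjusted p of the gene, with a log2 fold change of 0.40 (SE 0.12, edgeR adjusted p = 0.090).

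Summed over its 9 regions, EGR1 had 144 and 137 CPM in WT cells, 165 and 157 in WT cells with IFN, 239 and 256 in USP18-/- cells, and 357 and 349 in USP18-/- cells with IFN. The order was USP18-/- with IFN, USP18-/-, WT with IFN and WT, and no neighbours in it overlapped. The IFN effect on the sum was 0.20 in WT and 0.51 in USP18-/- cells on the log2 scale, and their difference was 0.31 (SE 0.09, edgeR adjusted p = 0.0082). That difference lost its call without WT replicate 1 (0.27), without USP18-/- replicate 1 (0.23) and when scaled by the sum of counts (0.18). Away from the promoter, EGR1 -6923 moved the other way, with 5.73 and 6.46 CPM in WT cells, 6.47 and 6.91 in WT cells with IFN, 3.97 and 2.48 in USP18-/- cells, and 2.28 and 2.22 in USP18-/- cells with IFN. All its USP18-/- libraries lay under all WT libraries, with a log2 fold change of -1.57 (SE 0.26, edgeR adjusted p = 5.1e-07) between the treated groups. It was chosen after its values were seen, and the overlapping EGR1 -7422 was called lower in the same comparison. The 734 regions of other genes within 5000000 bp of EGR1 had a median of 0.13 untreated and 0.17 with IFN, and the part of such local shifts was not tested here or for the genes that follow.

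EGR2 showed the same order of groups as EGR1, at a lower level (8.16 CPM per region, against 25.1). At EGR2 -382 (chr10:62816262-62817262, promoter) H3K27ac was 11.4 and 11.5 CPM in WT cells, 15.9 and 15.0 in WT cells with IFN, 24.2 and 23.3 in USP18-/- cells, and 33.1 and 37.6 in USP18-/- cells with IFN. All 4 groups were separate there. USP18-/- exceeded WT by 1.05 (SE 0.14, edgeR adjusted p = 2.0e-09) on the log2 scale untreated and by 1.19 (SE 0.13, edgeR adjusted p = 8.6e-13) with IFN, and by 0.74 and 0.84 with scaling on proximal regions. The overlapping EGR2 -73 gave 1.02 and 1.08, and fell under the fold of 2 without USP18-/- replicate 2 untreated (0.99), and without WT IFN replicate 2 (0.93) or USP18-/- IFN replicate 2 (0.80) with IFN. EGR2 +1062, a weak region with 0.614 to 6.30 CPM, was called higher in both comparisons (1.17 and 1.94), the first of which was lost without WT replicate 1 (0.68) or USP18-/- replicate 2 (0.85).

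The 2 tested distal regions of EGR2 moved in opposite directions between untreated genotypes. At the intergenic EGR2 -11734 (chr10:62830401-62831401) the libraries gave 6.14 and 2.87 CPM in WT cells, 3.14 and 2.94 in WT cells with IFN, 12.6 and 10.5 in USP18-/- cells, and 5.87 and 4.54 in USP18-/- cells with IFN. The untreated USP18-/- libraries alone were high. IFN changed them by -1.15 (SE 0.21, edgeR adjusted p = 8.3e-06) on the log2 scale, or by -0.99 without USP18-/- IFN replicate 2, and they exceeded untreated WT by 1.38, or by 0.91 without WT replicate 2. The weak EGR2 -20600 (chr10:62839267-62840267, intergenic) had 2.05 and 1.89 CPM in WT cells, 0.981 and 1.02 in WT cells with IFN, 0.604 and 0.382 in USP18-/- cells, and 1.14 and 0.463 in USP18-/- cells with IFN. Its untreated WT libraries were the highest. The log2 fold change between genotypes was -1.95 (SE 0.52, edgeR adjusted p = 0.0016) untreated and -0.30 (SE 0.53, edgeR adjusted p = 0.71) with IFN, and the difference of the IFN effects was 1.65 (SE 0.76, edgeR adjusted p = 0.17).

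The EGR2 sum was 30.8 and 28.4 CPM in WT cells, 35.7 and 31.5 in WT cells with IFN, 60.0 and 58.9 in USP18-/- cells, and 66.0 and 80.6 in USP18-/- cells with IFN. No groups overlapped, and the log2 fold change between genotypes was 1.01 (SE 0.11, edgeR adjusted p = 2.3e-09) untreated and 1.12 (SE 0.11, edgeR adjusted p = 5.8e-11) with IFN, where 317 regions of other genes within 5000000 bp had medians of -0.08 and -0.02. The rise of the sum with IFN in USP18-/- cells (0.30 (SE 0.10, edgeR adjusted p = 0.015)) was lost without USP18-/- replicate 1 (0.29), USP18-/- replicate 2 (0.29) or USP18-/- IFN replicate 2 (0.14). That rise also lost its call with DESeq2 (0.30, DESeq2 adjusted p = 0.051) and when scaled by the sum of counts (0.17).

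The sequences of both promoters are shown because they hold CArG boxes, the sites of serum response factor long known from EGR genes. CArG boxes were searched in the 250 bases before the start in RefSeq promoters (GRCh38.p14), where 1.16% of 35116 promoters held one. Of 19 promoters of 8 member genes in that table, 2 held one. In capitals, the EGR1 promoter (chr5:138465229-138465478, + strand) has 2 of them, 96 and 74 bases before the start, and an EGR2 promoter (chr10:62816367-62816616, - strand) has 1, at 62 bases before it. The other sequence is the part of EGR2 -382 with a match to the NF-kB motif GGANTTTCC in capitals (chr10:62816690-62816758, + strand), which 4.15% of all regions and 7 of the 103 members held on either strand.
EGR1 promoter: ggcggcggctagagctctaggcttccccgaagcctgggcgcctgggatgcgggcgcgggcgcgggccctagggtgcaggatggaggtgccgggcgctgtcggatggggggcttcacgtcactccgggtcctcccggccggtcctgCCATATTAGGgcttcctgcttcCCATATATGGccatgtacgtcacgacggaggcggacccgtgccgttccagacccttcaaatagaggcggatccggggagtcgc
EGR2 promoter: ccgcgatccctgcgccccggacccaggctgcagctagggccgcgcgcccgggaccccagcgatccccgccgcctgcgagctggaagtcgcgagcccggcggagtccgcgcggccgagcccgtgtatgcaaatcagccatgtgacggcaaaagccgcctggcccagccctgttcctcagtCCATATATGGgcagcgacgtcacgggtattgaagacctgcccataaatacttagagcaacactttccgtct
EGR2 -382: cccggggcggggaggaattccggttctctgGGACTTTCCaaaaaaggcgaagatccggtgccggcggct

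MEF2C, a MADS box factor, differed more between genotypes at its distal regions than at its proximal ones. The median log2 fold changes were 0.91 against 0.25 untreated and 1.01 against 0.49 with IFN. For IFN in USP18-/- cells the order was the reverse, with 0.11 against 0.31. At MEF2C -253 (chr5:88883219-88884219, promoter) the libraries gave 21.8 and 25.05 CPM in WT cells, 25.1 and 23.97 in WT cells with IFN, 26.8 and 29.4 in USP18-/- cells, and 36.0 and 39.8 in USP18-/- cells with IFN. The treated USP18-/- libraries were highest, with a log2 fold change over treated WT of 0.63 (SE 0.12, edgeR adjusted p = 6.0e-06), under the fold of 2. At MEF2C -5356 (chr5:88828783-88829783, intron) they gave 5.22 and 5.75 CPM in WT cells, 7.46 and 7.11 in WT cells with IFN, 9.84 and 10.1 in USP18-/- cells, and 19.3 and 18.3 in USP18-/- cells with IFN. No groups overlapped at this region. Between the treated groups the log2 fold change was 1.37 (SE 0.17, edgeR adjusted p = 8.9e-11), and for IFN in USP18-/- cells it was 0.92 (SE 0.16, edgeR adjusted p = 2.2e-06), under the fold of 2. The weaker MEF2C -21525 had 1.64 and 2.24 CPM in WT cells, 1.86 and 2.23 in WT cells with IFN, 5.70 and 4.96 in USP18-/- cells, and 7.89 and 5.10 in USP18-/- cells with IFN. Its USP18-/- libraries were above all WT libraries, by 1.44 (SE 0.29, edgeR adjusted p = 2.7e-05) on the log2 scale untreated.

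Of 12 distal MEF2C regions, 3 were called higher in untreated USP18-/- cells and 5 with IFN, against 5.18% and 10.3% of all distal regions, and none was called lower, against 12.7% and 15.8%. The sum was 80.3 and 90.4 CPM in WT cells, 88.3 and 88.2 in WT cells with IFN, 116 and 119 in USP18-/- cells, and 144 and 147 in USP18-/- cells with IFN. WT and WT with IFN overlapped, and both USP18-/- groups were above them. The log2 fold change between genotypes was 0.46 (SE 0.07, edgeR adjusted p = 4.5e-06) untreated and 0.72 (SE 0.07, edgeR adjusted p = 3.8e-10) with IFN, where the 173 regions of other genes within 5000000 bp had medians of -0.15 and -0.01. With scaling on proximal regions the untreated value came to 0.15 and lost its call. MEF2C -5356 held 2 matches to the ISRE core motif TTCNNTTTC, which 32.7% of all regions and 41 of the 103 members matched on either strand. The part of the window that holds both is shown with the matches in capitals (chr5:88829148-88829324, + strand).
MEF2C -5356: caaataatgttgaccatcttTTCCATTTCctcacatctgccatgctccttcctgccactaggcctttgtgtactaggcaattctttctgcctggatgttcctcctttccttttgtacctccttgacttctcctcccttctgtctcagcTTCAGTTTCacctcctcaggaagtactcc

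GFI1 had the highest level of the 9 genes per region, 60.2 CPM, and the member region that changed most with IFN. At GFI1 -15532 (chr1:92501908-92502908, intergenic), H3K27ac was 11.05 and 13.6 CPM in WT cells, 15.3 and 15.5 in WT cells with IFN, 6.73 and 5.25 in USP18-/- cells, and 47.2 and 46.2 in USP18-/- cells with IFN. The untreated USP18-/- libraries were the lowest and the treated ones the highest, and no groups overlapped. IFN raised it by 2.95 (SE 0.15, edgeR adjusted p = 9.9e-30) on the log2 scale in USP18-/- cells, against a value of 0.32 (SE 0.15, edgeR adjusted p = 0.52) in WT cells, and the difference of these effects was 2.63 (SE 0.22, edgeR adjusted p = 2.2e-16). Between genotypes the log2 fold change was -1.04 (SE 0.17, edgeR adjusted p = 9.0e-07) untreated and 1.60 (SE 0.13, edgeR adjusted p = 2.6e-18) with IFN. The first was -0.88 without WT replicate 2 and -0.87 without USP18-/- replicate 2, under the fold of 2.

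The GFI1 promoters moved less. GFI1 -102 (chr1:92485702-92486702, promoter), the member region with the highest mean level, had 119 and 120.5 CPM in WT cells, 119.9 and 115 in WT cells with IFN, 153 and 181 in USP18-/- cells, and 141 and 147 in USP18-/- cells with IFN. USP18-/- libraries were above WT libraries, with log2 fold changes of 0.48 (SE 0.08, edgeR adjusted p = 5.2e-07) untreated and 0.30 (SE 0.08, edgeR adjusted p = 0.0013) with IFN. GFI1 -29191 (chr1:92515567-92516567), in an intron of EVI5, had 61.6 and 57.7 CPM in WT cells, 51.4 and 48.7 in WT cells with IFN, 109 and 99.5 in USP18-/- cells, and 117 and 116 in USP18-/- cells with IFN. USP18-/- exceeded WT there by 1.22 (SE 0.09, edgeR adjusted p = 1.3e-20) on the log2 scale with IFN, or by 0.95 when scaled by the sum of counts. On the other side of the gene, GFI1 +21976 had 57.6 and 50.5 CPM in WT cells, 45.0 and 41.3 in WT cells with IFN, 42.1 and 33.4 in USP18-/- cells, and 22.8 and 20.0 in USP18-/- cells with IFN. It was lowest in treated USP18-/- cells, where IFN gave a log2 fold change of -0.82 (SE 0.12, edgeR adjusted p = 2.1e-08), and its call against treated WT (-1.01) was lost without WT IFN replicate 1 or USP18-/- IFN replicate 2 (-0.95 for both). The GFI1 sum was 569 and 562 CPM in WT cells, 521 and 506 in WT cells with IFN, 679 and 699 in USP18-/- cells, and 623 and 658 in USP18-/- cells with IFN. It was higher in USP18-/- cells by 0.28 (SE 0.05, edgeR adjusted p = 6.7e-06) untreated and 0.32 (SE 0.05, edgeR adjusted p = 6.8e-07) with IFN on the log2 scale, but came to -0.03 in both with scaling on proximal regions, and the 525 regions of other genes within 5000000 bp had medians of -0.27 and -0.11.

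**Figure D3:**
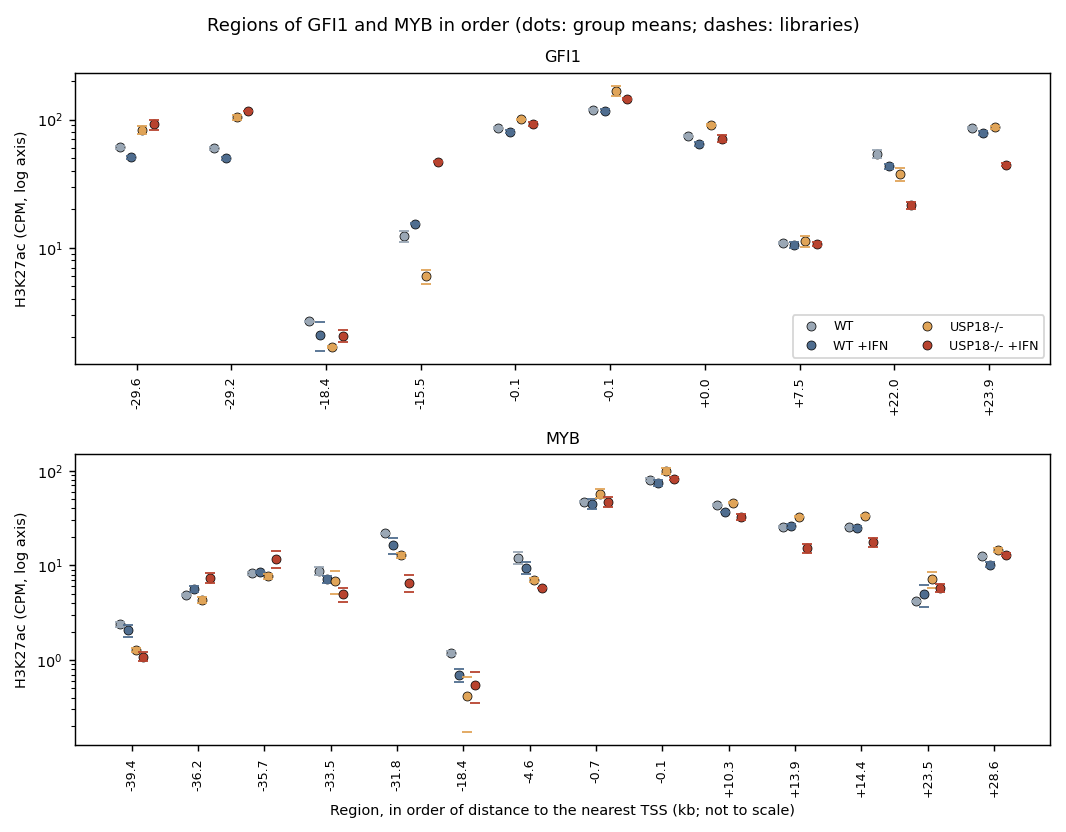
H3K27ac (CPM, log y axis) in the regions of GFI1 and MYB in order of their distance to the TSS (x axis), with a dot for each group mean and dashes for the 2 libraries. GFI1 -15532 rises from a mean of 5.99 CPM in USP18-/- cells to 46.7 CPM with IFN, and MYB +13919 falls from 32.5 to 15.1 CPM.

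RUNX1 showed IFN effects of both signs in USP18-/- cells, at intronic regions. At RUNX1 -45494 (chr21:34933684-34934684) the libraries gave 4.30 and 4.13 CPM in WT cells, 5.49 and 4.47 in WT cells with IFN, 3.63 and 4.58 in USP18-/- cells, and 10.8 and 12.04 in USP18-/- cells with IFN. The treated USP18-/- libraries alone stood apart. IFN raised it by 1.48 (SE 0.21, edgeR adjusted p = 1.1e-08) on the log2 scale, and the difference from the effect in WT was 1.23 (SE 0.32, edgeR adjusted p = 0.0042). The reverse was seen at RUNX1 +22568 (chr21:34865622-34866622), with 22.1 and 23.5 CPM in WT cells, 20.8 and 20.3 in WT cells with IFN, 21.8 and 24.3 in USP18-/- cells, and 9.65 and 10.7 in USP18-/- cells with IFN. Here the treated USP18-/- libraries alone were low, with a log2 fold change for IFN of -1.17 (SE 0.14, edgeR adjusted p = 1.5e-10) and a difference from WT of -1.02 (SE 0.20, edgeR adjusted p = 5.4e-05). This difference fell under the fold of 2 without WT replicate 1 (-0.98), USP18-/- replicate 2 (-0.94) or USP18-/- IFN replicate 1 (-0.97). RUNX1 -22842 (chr21:34911032-34912032) had 36.4 and 35.0 CPM in WT cells, 28.7 and 35.6 in WT cells with IFN, 32.3 and 34.8 in USP18-/- cells, and 16.0 and 15.6 in USP18-/- cells with IFN. Its treated USP18-/- libraries were also the low ones, with a log2 fold change for IFN of -1.08 (SE 0.13, edgeR adjusted p = 1.6e-11).

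Other RUNX1 regions differed between genotypes with and without IFN. RUNX1 -25816 (chr21:34914006-34915006, intron) had 19.0 and 20.2 CPM in WT cells, 16.5 and 19.0 in WT cells with IFN, 7.77 and 7.44 in USP18-/- cells, and 4.12 and 4.82 in USP18-/- cells with IFN. All USP18-/- libraries were under all WT libraries, with log2 fold changes of -1.37 (SE 0.16, edgeR adjusted p = 6.5e-11) untreated and -1.99 (SE 0.18, edgeR adjusted p = 7.1e-16) with IFN. The weak RUNX1 +42802 went the other way, by 1.96 (SE 0.28, edgeR adjusted p = 8.6e-09) on the log2 scale with IFN. RUNX1 has a proximal and a distal promoter. At the proximal one (RUNX1 -92) H3K27ac was 56.7 and 53.6 CPM in WT cells, 65.4 and 54.9 in WT cells with IFN, 69.9 and 72.5 in USP18-/- cells, and 75.4 and 74.5 in USP18-/- cells with IFN. USP18-/- exceeded WT there by 0.37 (SE 0.09, edgeR adjusted p = 0.0010) untreated, while at the distal promoter (RUNX1 +40) the 8 libraries lay between 16.8 and 20.5 CPM and no comparison was called.

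The RUNX1 sum was 527 and 508 CPM in WT cells, 522 and 511 in WT cells with IFN, 595 and 654 in USP18-/- cells, and 562 and 604 in USP18-/- cells with IFN. The USP18-/- groups were above the WT groups, and within each genotype the groups with and without IFN overlapped. The log2 fold change was 0.27 (SE 0.05, edgeR adjusted p = 5.2e-05) untreated and 0.18 (SE 0.05, edgeR adjusted p = 0.0046) with IFN, but turned to -0.04 and -0.18 with scaling on proximal regions, and to -0.10 with IFN when scaled by the sum of counts. With IFN it lost its call without USP18-/- IFN replicate 2 (0.10), and the 484 regions of other genes within 5000000 bp had medians of 0.14 and 0.17. The central 151 bases of the rising RUNX1 -45494 (chr21:34934109-34934259, - strand) are shown beside part of the falling RUNX1 +22568 (chr21:34865706-34865813, - strand). RUNX1 -45494 had no match to the ISRE core, GAS (TTCNNNGAA), NF-kB, RUNX (TGTGGTT) or PU.1 (GAGGAAGT) motif, which says only that these letters are not in its window. It held 1 match to the MYB motif TAACNG. RUNX1 +22568 held a match to the PU.1 motif, in capitals, as did 10.96% of all regions and 11 of the 103 members, and outside the stretch shown 1 match each to the ISRE core and MYB motifs. That PU.1 match lies at -362.5 bp from the centre of RUNX1 +22568. It lies at -12.5 bp from the centre of the overlapping RUNX1 +22918, which was not called for IFN in USP18-/- cells.
RUNX1 -45494: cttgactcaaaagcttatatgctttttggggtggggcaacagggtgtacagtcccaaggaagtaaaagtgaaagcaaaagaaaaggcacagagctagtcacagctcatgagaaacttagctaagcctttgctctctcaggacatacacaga
RUNX1 +22568: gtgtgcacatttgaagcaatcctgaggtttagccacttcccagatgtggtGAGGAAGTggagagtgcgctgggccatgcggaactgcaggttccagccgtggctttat

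**Figure D4:**
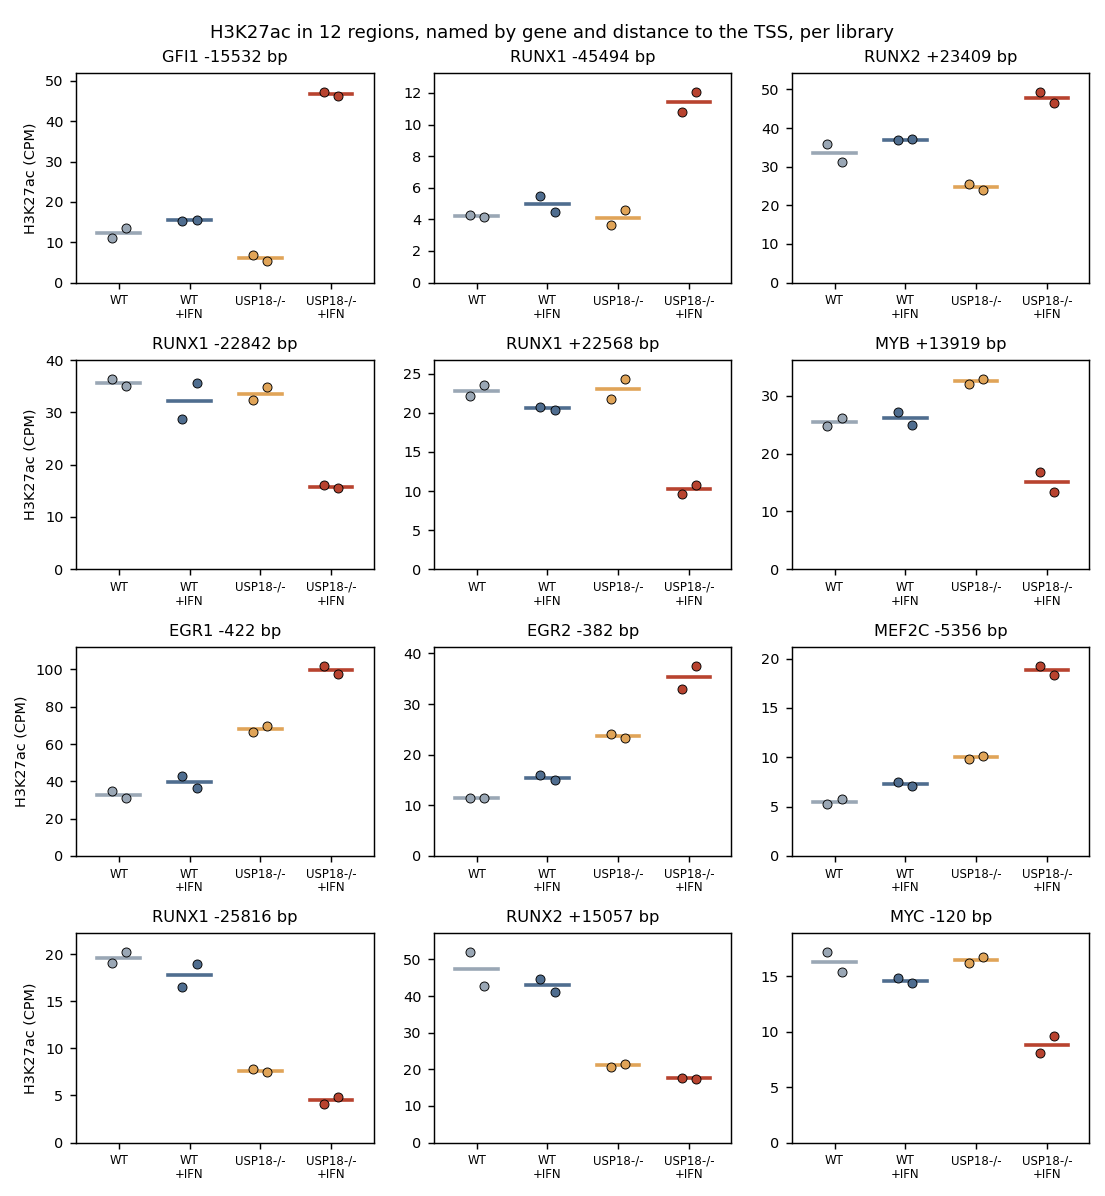
H3K27ac (CPM, y axes from 0) in 12 regions named in the text, for the 4 groups (x axis), with a point per library and a bar at the group mean. The top row holds 3 regions that were highest in USP18-/- cells with IFN, the second row 3 that were lowest there, and the next row 3 that rose from group to group.

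RUNX2, best known for bone formation, had 3 of its 12 regions called lower in USP18-/- cells untreated and 5 with IFN, against 10.8% and 13.5% of all regions. The 12 windows form 9 separate stretches, and 3 of the 5 overlap. At RUNX2 +15057 (chr6:45437134-45438134, intron) the libraries gave 52.0 and 42.8 CPM in WT cells, 44.7 and 41.2 in WT cells with IFN, 20.5 and 21.6 in USP18-/- cells, and 17.7 and 17.4 in USP18-/- cells with IFN. All USP18-/- libraries lay under all WT libraries. The log2 fold change was -1.17 (SE 0.12, edgeR adjusted p = 7.1e-14) untreated and -1.29 (SE 0.12, edgeR adjusted p = 1.4e-15) with IFN, and the 737 regions of other genes within 5000000 bp had medians of -0.24 and -0.28. The overlapping RUNX2 +14405 and RUNX2 +14755, chosen after their values were seen, gave -0.97 and -1.02 untreated. RUNX2 +23409 (chr6:45445486-45446486, intron) moved differently, with 36.0 and 31.2 CPM in WT cells, 36.9 and 37.2 in WT cells with IFN, 25.6 and 24.04 in USP18-/- cells, and 49.3 and 46.5 in USP18-/- cells with IFN. It was lowest in untreated and highest in treated USP18-/- cells. IFN gave a log2 fold change of 0.95 (SE 0.11, edgeR adjusted p = 2.4e-11) in USP18-/- cells, under the fold of 2, and the difference from WT was 0.81 (SE 0.16, edgeR adjusted p = 6.7e-05).

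At the TSS, RUNX2 +112 (exon) had 52.0 and 49.2 CPM in WT cells, 52.4 and 50.0 in WT cells with IFN, 65.6 and 67.0 in USP18-/- cells, and 67.1 and 72.6 in USP18-/- cells with IFN. USP18-/- libraries were above WT libraries, by 0.39 (SE 0.09, edgeR adjusted p = 5.6e-04) on the log2 scale untreated. The RUNX2 sum was 297 and 265 CPM in WT cells, 278 and 264 in WT cells with IFN, 207 and 222 in USP18-/- cells, and 223 and 235 in USP18-/- cells with IFN. It was lower in USP18-/- cells, with log2 fold changes of -0.39 (SE 0.06, edgeR adjusted p = 4.0e-06) untreated and -0.24 (SE 0.06, edgeR adjusted p = 0.0014) with IFN, while its proximal regions alone gave 0.28 and 0.32, and windows that do not overlap gave -0.01 with IFN. The weak RUNX2 -17852, in an intron of SUPT3H, was lower in USP18-/- cells, and its call with IFN (-1.06) was lost without WT IFN replicate 1 (-0.45) or USP18-/- IFN replicate 1 (-1.04). Part of RUNX2 +23409 is shown with its ISRE core match in capitals (chr6:45445750-45445858, + strand).
RUNX2 +23409: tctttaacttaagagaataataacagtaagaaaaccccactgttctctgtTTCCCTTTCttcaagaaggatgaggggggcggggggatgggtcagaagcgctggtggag

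MYB, on which many leukemias depend, had a lower sum with IFN in USP18-/- cells, but not all its regions fell. At an adjusted p under 0.05 without the fold of 2, 6 of its 14 regions fell and 2 rose. The shares of all regions at that threshold were not counted. At the intronic MYB +13919 (chr6:135194734-135195734) the libraries gave 24.8 and 26.2 CPM in WT cells, 27.3 and 24.98 in WT cells with IFN, 32.1 and 32.9 in USP18-/- cells, and 16.8 and 13.4 in USP18-/- cells with IFN. The treated USP18-/- libraries were the lowest and the untreated ones the highest. IFN gave a log2 fold change of -1.10 (SE 0.13, edgeR adjusted p = 2.4e-11) in USP18-/- cells, which was -0.96 without USP18-/- IFN replicate 2, against 0.04 (SE 0.13, edgeR adjusted p = 0.97) in WT cells. The difference was -1.13 (SE 0.18, edgeR adjusted p = 9.3e-07). The overlapping MYB +14389 was called neither for IFN in USP18-/- cells nor for the difference. At the promoter, MYB -54 (chr6:135180761-135181761) had 83.5 and 77.8 CPM in WT cells, 80.8 and 69.3 in WT cells with IFN, 108 and 92.2 in USP18-/- cells, and 85.3 and 79.6 in USP18-/- cells with IFN. It fell with IFN in USP18-/- cells by less than 2-fold (log2 fold change -0.28 (SE 0.09, edgeR adjusted p = 0.012)). Upstream, the intergenic MYB -31775 had 21.9 and 21.7 CPM in WT cells, 13.2 and 19.3 in WT cells with IFN, 13.6 and 12.1 in USP18-/- cells, and 7.89 and 5.19 in USP18-/- cells with IFN. It was lowest in the treated USP18-/- libraries, with -1.30 (SE 0.18, edgeR adjusted p = 2.7e-09) against treated WT on the log2 scale.

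The MYB sum was 304 and 294 CPM in WT cells, 279.9 and 266 in WT cells with IFN, 348 and 316 in USP18-/- cells, and 271 and 233 in USP18-/- cells with IFN. The treated groups of the 2 genotypes overlapped. IFN lowered the sum in USP18-/- cells, with a log2 fold change of -0.40 (SE 0.06, edgeR adjusted p = 5.1e-06), and the difference from WT was -0.27 (SE 0.09, edgeR adjusted p = 0.032). That difference lost its call without each of WT replicate 1 (-0.29), WT replicate 2 (-0.24), WT IFN replicate 1 (-0.23), USP18-/- replicate 1 (-0.23) and USP18-/- IFN replicate 2 (-0.19). Between untreated genotypes the sum differed by 0.15 (SE 0.06, edgeR adjusted p = 0.047), a call lost without WT replicate 1 (0.18), WT replicate 2 (0.12) or USP18-/- replicate 1 (0.08), and the direction turned with scaling on proximal regions (-0.16). The middle of MYB +13919 is shown because it holds a match to the MYB motif TAACNG, read on the other strand, and 1 to the RUNX motif, both in capitals (chr6:135195199-135195393, + strand). Of all regions 60.0% and 19.5% held these motifs, and of the members 65 and 22.
MYB +13919: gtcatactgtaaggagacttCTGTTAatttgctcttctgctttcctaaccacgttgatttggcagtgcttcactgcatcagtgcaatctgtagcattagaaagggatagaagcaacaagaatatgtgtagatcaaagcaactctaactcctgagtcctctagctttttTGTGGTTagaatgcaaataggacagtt

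MYC, a basic helix-loop-helix factor of cell growth, fell at its start with IFN in USP18-/- cells. At MYC -120 (chr8:127734814-127735814, promoter) H3K27ac was 17.2 and 15.4 CPM in WT cells, 14.8 and 14.4 in WT cells with IFN, 16.2 and 16.8 in USP18-/- cells, and 8.07 and 9.64 in USP18-/- cells with IFN. The treated USP18-/- libraries alone were low. IFN gave a log2 fold change of -0.90 (SE 0.16, edgeR adjusted p = 3.5e-06) in USP18-/- cells and the difference from WT was -0.75 (SE 0.22, edgeR adjusted p = 0.013), both under the fold of 2. The overlapping MYC +793 changed by -0.65 (SE 0.14, edgeR adjusted p = 7.0e-05). The region of the gene with the highest mean, MYC +24335, lay between 66.7 and 80.8 CPM in all 8 libraries and was called in no comparison. The MYC sum was 241 and 249 CPM in WT cells, 224 and 223 in WT cells with IFN, 266 and 237 in USP18-/- cells, and 207 and 210.1 in USP18-/- cells with IFN. It fell with IFN in USP18-/- cells, with a log2 fold change of -0.27 (SE 0.06, edgeR adjusted p = 5.7e-04), and was 0.04 between untreated genotypes, which did not pass. This value depended on the scaling and the regions used, with -0.27 (edgeR adjusted p = 0.00041) with scaling on proximal regions, 0.20 (edgeR adjusted p = 0.0074) with scaling on distal regions and 0.27 (edgeR adjusted p = 0.026) from proximal regions alone. The one MYC region called in any comparison was the weak MYC +7723, chosen after its values were seen, with a log2 fold change of -1.01 (SE 0.39, edgeR adjusted p = 0.034) between untreated genotypes.

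KLF4 carried little H3K27ac, 3.15 CPM per region on average. At its promoter, KLF4 -205 (chr9:107489425-107490425), the libraries gave 10.8 and 9.34 CPM in WT cells, 12.3 and 9.14 in WT cells with IFN, 8.46 and 11.1 in USP18-/- cells, and 12.1 and 9.64 in USP18-/- cells with IFN. All groups overlapped, and the log2 fold changes of the 4 comparisons lay between -0.05 and 0.16, with an SE of 0.18 for each. Downstream, KLF4 +8486 had 8.18 and 7.90 CPM in WT cells, 6.47 and 5.89 in WT cells with IFN, 5.52 and 3.63 in USP18-/- cells, and 4.38 and 3.89 in USP18-/- cells with IFN. All USP18-/- libraries were under all WT libraries, by -0.80 (SE 0.22, edgeR adjusted p = 0.0024) untreated, under the fold of 2. The 2 KLF4 regions called lower in untreated cells were weak, with at most 2.45 CPM in any library, and both KLF4 +10728 (-1.10) and KLF4 -37230 (-1.83) lost their call without WT replicate 2 (-1.17 and -0.89, not past the adjusted p) or without either untreated USP18-/- library, the former also without WT replicate 1. The sum was 34.1 and 32.9 CPM in WT cells, 31.9 and 28.1 in WT cells with IFN, 23.8 and 24.99 in USP18-/- cells, and 26.9 and 24.4 in USP18-/- cells with IFN. Untreated USP18-/- cells were lower by a log2 fold change of -0.46 (SE 0.12, edgeR adjusted p = 0.0016), where the 439 regions of other genes within 5000000 bp had a median of -0.31 and the proximal region of KLF4 alone gave -0.05.

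Genes of the same families and complexes were counted in the same way on their sums. Of 28 tested (29 listed), 16 were higher and 2 lower in untreated USP18-/- cells, against 32.8% and 16.8% of all genes. With IFN these counts were 16 and 4, against 37.4% and 18.6%. In USP18-/- cells 10 rose and 5 fell with IFN, against 20.8% and 15.1%. The medians were 0.29, 0.39 and 0.14 on the log2 scale, beside 0.16, 0.20 and 0.04 over all genes. The difference of the IFN effects was called for 9 genes of the list. Of all genes, 12.5% were called above 0 and 7.87% below 0. In the list it was above 0 for MEF2A (0.93), NAB1 (0.61), HDAC9 (0.46), RUNX3 (0.44), KLF6 (0.39) and NAB2 (0.38), and below 0 for CBFA2T3 (-0.71), MYBL2 (-0.68) and MYCL (-0.32). NAB1 and NAB2 encode corepressors that bind EGR proteins, CBFA2T3 a corepressor related to the RUNX1 fusion partner RUNX1T1, and HDAC9 a deacetylase that binds MEF2 proteins. In WT cells IFN called EGR3 alone, a close relative of EGR1 and EGR2 that is named after its values were seen. EGR3 had 69.4 and 68.1 CPM in WT cells, 93.6 and 90.1 in WT cells with IFN, 109.7 and 128 in USP18-/- cells, and 155 and 167 in USP18-/- cells with IFN. It rose by 0.42 (SE 0.08, edgeR adjusted p = 0.0023) in WT and 0.44 (SE 0.08, edgeR adjusted p = 1.4e-05) in USP18-/- cells on the log2 scale, and the difference was 0.02 (SE 0.11, edgeR adjusted p = 0.93).

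Of 13 other blood cell transcription factors tested (14 listed), 7 were higher and 3 lower in USP18-/- than in WT cells untreated, and 8 and 4 with IFN. Of all genes, 32.8% were higher and 16.8% lower untreated, and 37.4% and 18.6% with IFN. The medians of these factors were 0.25 and 0.56, beside 0.16 and 0.20 over all genes. The genes whose sums were most like a member's, among 15905 genes, were taken by Pearson's r of log2 CPM as a description of 8 libraries in 4 groups. They were MTERF3 for EGR1 (r = 0.999), TEN1 for EGR2 (r = 0.997), HCG4B for MEF2C (r = 0.997), ZNF66 for GFI1 (r = 0.994), WNK2 for KLF4 (r = 0.993), JAK1 for RUNX2 (r = 0.989), VEGFA for RUNX1 (r = 0.988), CNTLN for MYB (r = 0.980) and FGGY for MYC (r = 0.967). At the distance limit, the region just inside was RUNX1 -45494 and the one just outside was KLF4 -50256, with group means of 0.794 to 0.927 CPM.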

How the data were processed

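H3K27ac ChIP-seq libraries of THP-1 cells were used, 2 for each of 4 groups. Input libraries were not used here. According to the submitters' processing notes and the study's methods, reads were aligned to hg38 with Bowtie2, and tags were counted with HOMER in windows around ATAC-seq peaks. The deposited values are estimated counts, because the authors' counting left 52.2% of them whole, and they were rounded before testing. No value column was without a sample (0 columns).

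A region was tested where 2 or more libraries held 10 or more counts, with edgeR (version 4.0.16, R 4.3.3), with TMM factors, 1 model over the 4 groups and glmQLFTest. Each p was adjusted by Benjamini-Hochberg over all regions or all genes. A region was called at a fold above 2 and an adjusted p under 0.05, a gene sum at the adjusted p alone. The common biological coefficient of variation was 0.0746. Since each group had 2 libraries, each p-value sets a difference against a spread shared over the 4 groups. That spread is also drawn toward that of other regions or genes. The p-values speak for these samples alone. The procedure was tested on simulated data in which few regions changed, as many up as down. That test does not bear on the choice of scaling. Coordinates and sequences are of hg38.

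For each gene, the text gives the sum and names regions drawn from a rule. The rule takes the region nearest to each annotated start, the region with the highest mean and the region with the smallest adjusted p in each comparison. It also takes regions called for the difference of the IFN effects. Not every region that meets this rule is named. The highest regions of RUNX1 and MEF2C are among those left out. Regions and genes named outside this rule are said to be chosen after their values were seen. The members and gene lists were chosen with earlier results of these data known. Alternatives were other scalings (DESeq2 size factors, the sum of counts, TMM from proximal or from distal regions), no filter, DESeq2 (version 1.42.0), a replicate block, the adjusted p alone, windows that do not overlap, proximal regions alone, and leaving out each library. Some items are not reported here.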

Additional observations from a re-analysis of the deposited data

Results flagged for a closer look

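Where the IFN effect was tested for a difference between USP18-/- and WT cells, 4 member regions and 2 gene sums passed. The difference on the log2 scale was 2.63 at GFI1 -15532 and 1.23 at RUNX1 -45494, both higher in USP18-/- cells with IFN. It was -1.02 at RUNX1 +22568 and -1.13 at MYB +13919, both lower there. For the summed counts it was 0.31 at EGR1 and -0.27 at MYB. Groups of 2 libraries are too small for a test of single libraries that stand apart.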

How the results depend on the processing

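Groups of 2 libraries limit every comparison. The cause of the changes below was not tested. Shares of all regions or genes under these alternatives were not counted. The member counts below show only how the calls move with the setting. With the adjusted p alone, without the fold of 2, region calls were 14 higher and 20 lower for IFN in USP18-/- cells, 35 and 19 between untreated genotypes, 35 and 22 between treated genotypes, and 5 and 10 for the difference. Scaling by the sum of counts gave 9 lower for IFN in USP18-/- cells, 4 higher between untreated genotypes and 4 below 0 for the difference. TMM factors from proximal regions gave 7 lower for IFN in USP18-/- cells, 2 higher and 19 lower untreated, and 7 higher and 21 lower between treated genotypes. TMM factors from distal regions gave 17 higher and 4 lower untreated and 7 lower between treated genotypes. DESeq2 gave 5 lower untreated.

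For gene sums, IFN in USP18-/- cells lowered 4 with the sum of counts, with TMM from proximal regions and with windows that do not overlap. Between treated genotypes 3 were higher with the sum of counts and with TMM from proximal regions, and the lower count was 4 with the sum of counts, 5 with TMM from proximal regions, and 0 with TMM from distal regions, windows that do not overlap or proximal regions alone. Between untreated genotypes 2 were higher and 4 lower with TMM from proximal regions, and 0 lower with proximal regions alone. The difference was called above 0 for 0 genes with the sum of counts, windows that do not overlap or proximal regions alone, and below 0 for 3 with the sum of counts and 0 with DESeq2 or windows that do not overlap.

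Directions turned for the sums of 5 genes with other scalings or regions. TMM from proximal regions gave log2 fold changes of -0.041 (RUNX1), -0.026 (GFI1), -0.16 (MYB) and -0.27 (MYC) between untreated genotypes and -0.18 (RUNX1) and -0.035 (GFI1) between treated ones. The sum of counts gave -0.10 for RUNX1 between treated genotypes. Proximal regions alone gave 0.28 untreated and 0.32 treated for RUNX2.

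Leaving out 1 library at a time, region calls ranged from 0 to 0 in both directions for IFN in WT cells, from 2 to 3 higher and 4 to 7 lower for IFN in USP18-/- cells, from 8 to 11 higher and 6 to 9 lower untreated, from 14 to 16 higher and 8 to 13 lower between treated genotypes, and from 2 to 3 and 1 to 3 for the difference. Gene sums ranged from 0 to 0, from 2 to 3 higher and 2 to 4 lower, from 5 to 6 and 2 to 2, from 4 to 5 and 1 to 2, and from 0 to 1 and 0 to 1 in the same order. The lone library of a group was then assumed to vary like the other groups.

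Replicate numbers showed no clear pairing of the samples. Deviations of same-numbered libraries from their group means correlated at -0.00281 to 0.0580, highest between untreated and treated USP18-/- cells. Counting noise makes up much of such deviations, so these values cannot exclude a pairing. With the replicate block the region calls were 2 higher and 4 lower for IFN in USP18-/- cells, 9 and 9 untreated, 15 and 12 between treated genotypes and 2 and 2 for the difference, and 0 and 0 for IFN in WT cells, the same counts as without it.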
